A study of Mus musculus with 25 samples.

Results

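H3K79me3, the trimethylated form of lysine 79 of histone H3, was mapped by chromatin immunoprecipitation and sequencing (ChIP) in v6.5 mouse embryonic stem cells, wild type (WT) or knockout for Dot1L (KO). All peaks of the 2 WT and 2 KO libraries were taken, 27644 of the 158590 peaks deposited for the 8 ChIP libraries of the series. The remaining 130946 are peaks of H3K79me2, the dimethylated form, in the same genotypes. Chromatin was fixed with formaldehyde, the cells received no treatment, and the genotypes differ only in Dot1L as far as the labels say. Neither the deleted part of Dot1L nor whether replicates came from separate cultures or clones is given, so the spread between libraries may be technical. RNA of the same genotypes (3 WT and 2 KO libraries) was used beside the peaks.

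DOT1L is the enzyme that methylates lysine 79 in the globular core of histone H3 and can add 1, 2 or 3 methyl groups. It is recruited with elongation factors to genes that RNA polymerase II is transcribing, and its mark is known from the first part of active gene bodies. In embryonic stem cells such genes include those for ribosomal proteins, splicing factors, metabolic enzymes and pluripotency regulators.

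Each library has its own H3K79me3 peak list, and its enrichment is the authors' fold value for the peak, which describes and ranks peaks within a list. With 2 libraries against 2, the smallest two-sided exact permutation p is 0.333, so peak values are given per library with no test. RNA libraries held 26860527 to 33755064 counts. The summed level of 19 pluripotency genes was 6850 to 6950 CPM (counts scaled to library size) in WT and 6040 to 6370 in KO. For 12 fibroblast feeder markers it was 223 to 272 CPM in WT and 272 to 334 in KO, and their part in the RNA results was not tested. Dot1l RNA was measured at 104, 96.9 and 99.2 CPM in WT and at 81.4 and 71.5 CPM in KO, a log2 fold change of -0.39 (SE 0.06, edgeR adjusted p = 0.00016). The groups did not overlap, but without knowing the deleted part this level does not check the knockout.

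Start regions are shown first for genes with peaks in all lists and for genes with peaks in WT alone. The stretches of the latter lay under no peak themselves, so no sequence of a lost peak is shown. A start window was defined as the 250 bases before to 50 after the RefSeq start of a coding gene. Rasd2 (a small GTPase) and Vmn2r29 (a vomeronasal receptor) were the 2 genes whose window was overlapped by a peak in all 4 lists, a choice made after values were seen. Ptma and Serbp1, also chosen after values were seen, were among the 10 genes of highest WT enrichment without a KO peak, and their windows lay under no peak of any list. Of those 10 genes, 8 matched a start in the RefSeq table, and 0 of the 8 windows were covered in both WT lists. The 250 bases before each start follow, from RefSeq on GRCm38.p6, 5′ to 3′ on the strand of the gene, with every CG dinucleotide in capitals. 
Rasd2 at chr8:75213694-75213943, plus strand: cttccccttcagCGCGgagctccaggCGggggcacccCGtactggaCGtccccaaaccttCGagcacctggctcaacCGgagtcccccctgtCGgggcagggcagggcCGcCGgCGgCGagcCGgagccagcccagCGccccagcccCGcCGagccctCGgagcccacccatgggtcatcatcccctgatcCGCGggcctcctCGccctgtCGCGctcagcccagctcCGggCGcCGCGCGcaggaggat
Vmn2r29 at chr7:7278290-7278539, minus strand: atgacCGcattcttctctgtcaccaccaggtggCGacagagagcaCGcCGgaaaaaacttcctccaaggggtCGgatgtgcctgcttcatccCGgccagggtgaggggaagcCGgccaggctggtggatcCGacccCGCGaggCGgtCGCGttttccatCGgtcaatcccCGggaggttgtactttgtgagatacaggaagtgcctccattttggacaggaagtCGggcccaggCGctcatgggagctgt
Ptma at chr1:86526307-86526556, plus strand: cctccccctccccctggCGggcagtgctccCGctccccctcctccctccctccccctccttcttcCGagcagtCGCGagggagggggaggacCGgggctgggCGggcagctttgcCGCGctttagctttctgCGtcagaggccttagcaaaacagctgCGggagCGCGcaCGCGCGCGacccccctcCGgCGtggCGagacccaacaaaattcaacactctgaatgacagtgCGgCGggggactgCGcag
Serbp1 at chr6:67266729-67266978, plus strand: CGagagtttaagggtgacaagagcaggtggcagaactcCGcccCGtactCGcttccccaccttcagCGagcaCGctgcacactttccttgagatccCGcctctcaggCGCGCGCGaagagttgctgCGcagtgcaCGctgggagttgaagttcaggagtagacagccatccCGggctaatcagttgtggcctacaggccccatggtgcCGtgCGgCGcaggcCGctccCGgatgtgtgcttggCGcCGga
These stretches hold 27, 17, 23 and 21 CG dinucleotides respectively. The starts with and without a peak thus do not separate by CG content in these 4 genes.

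H3K79me3 peaks were many in WT and few in KO. WT library 1 had 19800 peaks, WT library 2 had 7338, KO library 1 had 178 and KO library 2 had 328. They covered 9274 and 3608 kb in WT and 52.84 and 98.87 kb in KO. Every WT value lay above every KO value, although WT library 1 also stood far above WT library 2 in both measures. The median peak was 318 and 316.5 bp long in WT and 230.5 and 240 bp in KO. Peaks of at least 1 kb made up 7.33% and 8.95% of the WT lists, against 1.12% (2 peaks) and 1.22% (4 peaks) of the KO lists. The longest peak measured 12964 and 8564 bp in WT and 2161 and 2752 bp in KO.

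The typical enrichment did not separate the genotypes, and only the most extreme values were confined to the longer WT lists. Median enrichment was 3.93 and 4.34 fold in WT and 4.11 and 4.45 fold in KO, so the groups overlapped. Enrichment of at least 10 fold was reached by 89 and 51 WT peaks and by 0 KO peaks, whose maxima were 8.41 and 8.58. Such counts and maxima also depend on the number of peaks in a list. Peaks of at least 6 fold made up 5.33% and 8.97% of the WT lists and 7.3% and 4.27% of the KO lists, so these shares overlapped. Since lists of unequal length rank different depths of signal, the 178 highest-scoring peaks of each list were also compared. Their median length was 2100.5 and 1848 bp in WT and 230.5 and 257.5 bp in KO. Their median enrichment was 9.90 and 9.15 fold in WT and 4.11 and 4.89 fold in KO. The number 178 is the whole list of KO library 1, which is thus unselected, while the same number is a small top fraction of the WT lists. The comparison is a description that these unequal list lengths favour.

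**Figure D1:**
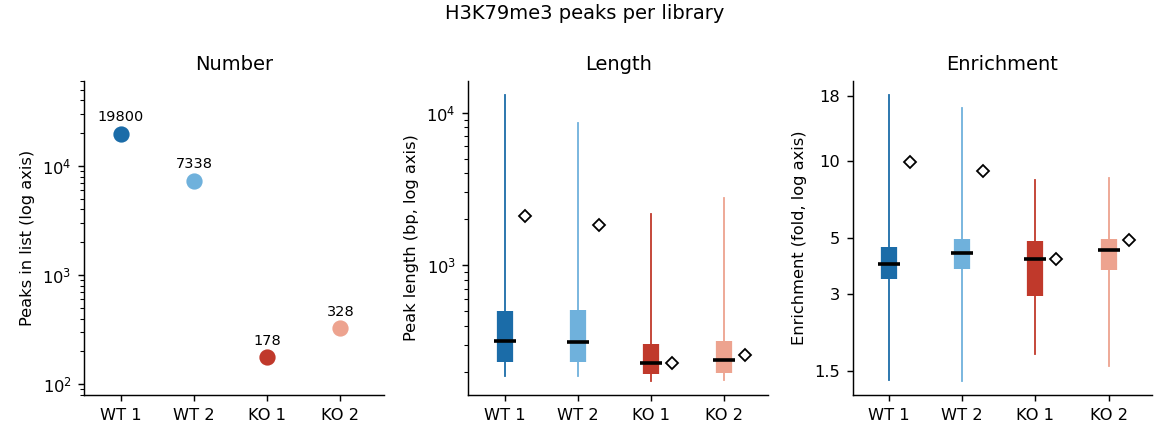
Peaks in each H3K79me3 list (left, log axis), peak length in bp (middle, log axis) and the authors' enrichment (right, fold, log axis). Lines span the range, boxes the interquartile range, black bars the medians, and open diamonds the medians of the 178 highest-scoring peaks per list, which stand at 2100.5 and 1848 bp in WT and at 230.5 and 257.5 bp in KO.

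Sharing between the WT lists rose with the score of the peak. Of WT library 2 peaks, 80.3% (Wilson 95% interval 79.4 to 81.2) overlapped a WT library 1 peak by at least 1 bp, and 27.2% (26.6 to 27.9) of WT library 1 peaks overlapped one of WT library 2. These and all other intervals cover counting error only. Split by score into 4 equal groups, WT library 1 shared 58.1% of its highest group and 11.8% of its lowest. Peaks of WT library 1 outside WT library 2 (14405) had a median length of 281 bp, and 35.4% overlapped H3K79me2 of WT cells. The 5395 shared ones had a median length of 569 bp, and 59.3% overlapped H3K79me2. Overlapping peaks joined into 4952 regions found in both WT lists, with a median length of 696 bp. Of these regions, 4726 (95.4%) overlapped no KO peak.

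Most WT peaks of H3K79me3 overlapped coding genes, and a minority had their summit close to a gene start. The overlap with coding genes was 61.4% and 67.5% of WT peaks. Summits lay 0 to 2 kb downstream of the nearest start in 19.2% and 20.8% of the WT peaks placed against a start, and 10 kb or more from it in 57.6% and 51.2%. Of the 4952 regions, 67.8% overlapped a protein-coding gene. A peak covered at least 1 base of 5256 coding genes in WT library 1 (24.0% of 21887) and of 2251 in WT library 2 (10.3%). In KO library 1 the count was 55 genes (0.251%) and in KO library 2 it was 165 (0.754%). Both WT lists covered 2179 coding genes (9.96%), and 2053 of these (9.38% of all) had no peak in either KO list. H3K79me2 covered 82.5% of the 2179 genes in both WT lists, against 37.6% of all coding genes.

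The start, the first covered base and the extent of the mark could be placed for genes with a known start. Among 1712 coding genes of both WT lists with a start, the first covered base within the gene lay at a median of 382 bp in WT library 1 and 813 bp in WT library 2. Cytosolic ribosomal protein genes began their coverage at a median of 177 and 248 bp, over 58 genes. In the 1320 of these genes of at least 10 kb, which were chosen for carrying the mark, coverage peaked at 700 bp (40.8% of genes) in WT library 1 and at 1100 bp (27.3%) in WT library 2. It had fallen to 11.2% and 7.27% at 5100 bp downstream. At 900 bp upstream it stood at 1.44% and 0.909%. Called H3K79me2 peaks reached further in the same genes. Their coverage peaked at 2900 and 2500 bp in 69.8% and 69.1% of genes and was still 47.6% and 46.5% at 9100 bp. The WT H3K79me2 lists are also far larger, with 66834 and 64084 peaks over 72510 and 67150 kb. ChIP depth is unknown, so this difference is one of called peaks, and the extent of the 2 marks was not tested. The KO lists reached at most 0.227% and 0.606% of these genes in any bin. The WT curves are therefore a description.

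**Figure D2:**
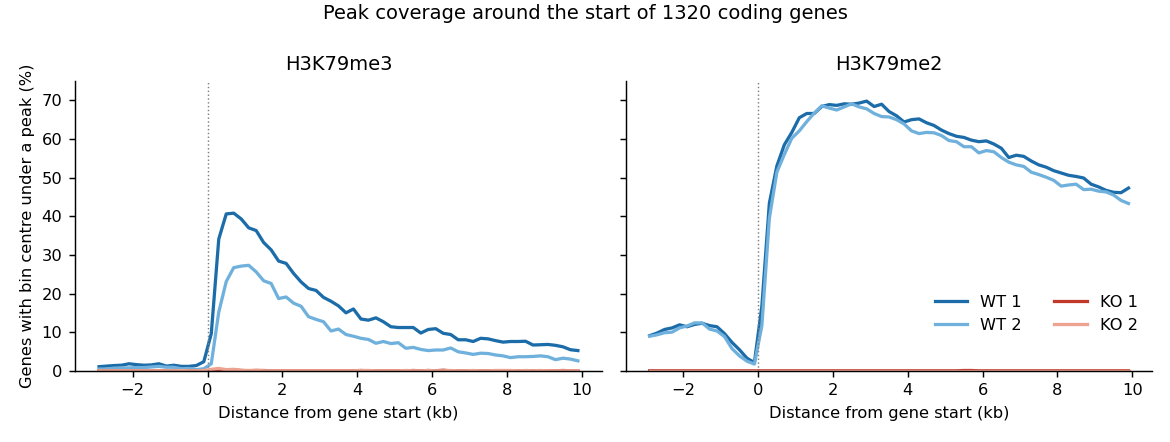
Share of 1320 coding genes (at least 10 kb, covered in both WT lists) whose bin centre lies under a peak, by distance from the gene start in kb in bins of 200 bp, for H3K79me3 (left) and H3K79me2 (right). WT H3K79me3 rises just after the start to 40.8% and 27.3%, WT H3K79me2 reaches 69.8% and 69.1% further downstream, and KO curves lie near 0 for both.

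The mark covered a small share of most genes and a large share of a few. Over the 2179 genes, the median covered length was 1490 bp in WT library 1 and 646 bp in WT library 2, or 6.50% and 2.98% of the gene. Across genes, which are not independent replicates, covered length correlated between the WT lists with Pearson r = 0.916 (Spearman rho = 0.785) and highest enrichment with r = 0.703 (rho = 0.567). These genes were required to be covered in both lists, and the 2 libraries share genome and peak caller.

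The 10 genes of highest enrichment in both WT lists and no KO peak were Ptma, Sfpq, Dhx9, Serbp1, Nop58, Pgk1, Ddx3x, Brd2, Pabpc1 and Smad7. They were ranked by the lower of the 2 WT values, so these values are a description. Ptma, encoding the acidic nuclear protein prothymosin alpha (chr1:86526557-86530712), had 17.9 and 16.2 fold, and its peaks spanned 77.6% and 80.2% of the gene. Sfpq, a splicing and paraspeckle protein (chr4:127020716-127051101), had 14.3 and 15.5 fold. Dhx9, an RNA helicase (chr1:153455756-153487688), had 14.7 and 13.8 fold. The others encode varied products: Serbp1, an mRNA-binding protein, the snoRNP core protein gene Nop58, the glycolytic enzyme gene Pgk1, the RNA helicase gene Ddx3x, the bromodomain gene Brd2, the poly(A)-binding protein gene Pabpc1 and the TGF-beta signalling inhibitor Smad7. Coverage of Ptma began 209 and 216 bp after its start, of Dhx9 after 24 and 57 bp, and of Sfpq after 171 and 348 bp. These distances are from the RefSeq start used for the start windows, which can lie inside the gene bounds printed above, as for Sfpq. In each of these 3 genes the covered stretch thus began inside the transcribed gene, close to its start.

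**Figure D3:**
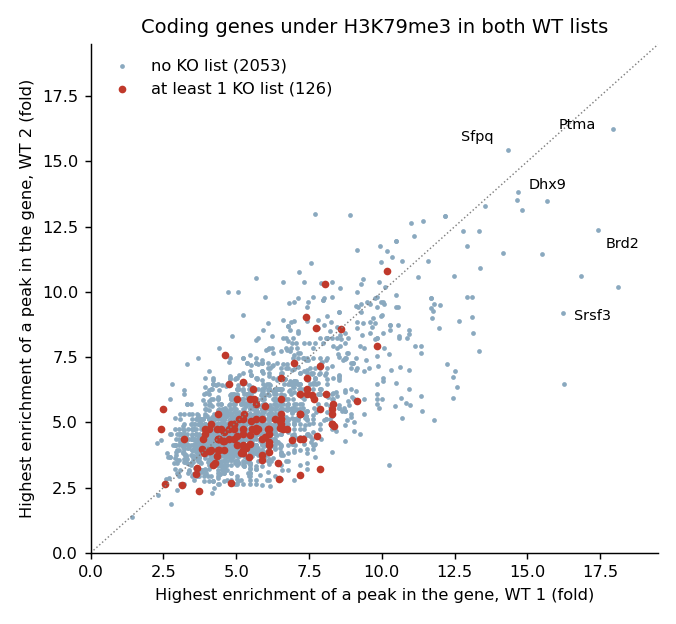
Highest enrichment (fold) of an H3K79me3 peak in each of 2179 coding genes covered in both WT lists, WT library 1 on the horizontal and WT library 2 on the vertical axis, with the diagonal dotted. Red points are the 126 genes with a peak in at least 1 KO list, and grey-blue points are the 2053 without one, which include Ptma at 17.9 and 16.2.

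RNA of these 10 genes fell in 6 and did not pass the test in 4. Of all tested genes covered in both WT lists 40.9% fell, and of those at 200 CPM and over 56.9% did. Nothing particular to the 10 genes is read from their count. Ptma RNA was 2790, 2870 and 2780 CPM in WT and 2230 and 2440 CPM in KO (log2 fold change -0.27, SE 0.04, edgeR adjusted p = 0.00013). Its groups did not overlap. Sfpq, Dhx9 and Nop58 fell by 0.26, 0.29 and 0.24 on the log2 scale (adjusted p = 0.0017, 0.0002 and 0.0021). The X-linked Pgk1 and Ddx3x fell by 0.52 and 0.92 (adjusted p = 1.2e-06 and 6.6e-08). All tested X-linked coding genes had a median log2 fold change of -0.61, and those covered in both WT lists -0.8. Serbp1, Brd2, Pabpc1 and Smad7 had log2 fold changes of -0.11, -0.03, 0.06 and -0.05 (adjusted p = 0.078, 0.59, 0.19 and 0.46).

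The 10 genes with the most covered bases were 38016 to 478623 bp long and held 8 to 61 peaks in a WT list. Zfp808, a KRAB zinc finger gene (chr13:62129857-62173938), had 22287 and 18318 covered bp in WT. Trim24, a chromatin reader gene, had 21177 and 16801 bp. Jarid2, a PRC2 cofactor (chr13:44730774-44921643), had 28786 bp in 52 peaks and 14354 bp in 25 peaks. The set also held the phosphatase gene Ppm1b, Gpbp1, Spin1, Zfp978, Zfp993 and Gm3325. A KO peak was found in 3 of the 10, namely Zfp808 (179 bp in KO library 2), Zfp978 (423 and 312 bp) and Zfp993 (245 bp in KO library 1). All 3 are zinc finger genes, a family with near-identical copies, among which reads may be shared.

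Zinc finger genes were also among the genes whose RNA fell most. Of the genes in both WT lists, the 5 with the largest decrease were the X-linked 4930519F16Rik, Zfp981, Rex2, Zfp600 and Foxd3. Zfp981 RNA was 336, 362 and 343 CPM in WT and 63.6 and 66.8 CPM in KO (log2 fold change -2.41, SE 0.05, edgeR adjusted p = 1e-11). Rex2 was 617, 658 and 624 CPM in WT and 122 and 141 CPM in KO (-2.26, SE 0.06, adjusted p = 8.1e-11). No KO library came near a WT library in either gene. H3K79me3 covered 8078 and 4761 bp of Rex2 and 784 and 395 bp of Zfp981 in WT, with no KO peak. Annotated Zfp993 overlaps both genes, so their peaks and reads are uncertain. Zfp978 fell by 2.09 and Zfp600 by 2.20 on the log2 scale, and KO library 2 had 312 and 189 covered bp in these 2 genes. Of 397 coding genes whose symbol starts with Zfp, a set chosen after values were seen, 72 (18.1%) were covered in both WT lists, and of the 70 of these tested for RNA 44 (62.9%) fell and 6 (8.57%) rose. Of all coding genes 9.96% were covered in both WT lists, and of all such covered genes 40.9% fell and 17.7% rose.

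The covered genes whose RNA rose most were Dlx3, Adm, Ier3, Tafa4 and Egln3. Egln3, an oxygen-sensing prolyl hydroxylase (chr12:54178981-54203874), was the most broadly covered, with 14105 and 6119 bp in WT and none in KO. Its RNA was 37.1, 38.5 and 33.8 CPM in WT and 123 and 105 CPM in KO (log2 fold change 1.64, SE 0.07, edgeR adjusted p = 2.3e-09). The immediate early gene Ier3 rose from 17.7, 16.8 and 17.1 CPM to 62.4 and 50.8 CPM (1.72, adjusted p = 3.7e-09). The vasodilator peptide gene Adm and the homeobox gene Dlx3 stood at 3.44 CPM or less in WT and rose by 1.85 and 2.04 on the log2 scale (adjusted p = 6e-07 and 3.4e-06). Neither of these 2 was covered by H3K79me2. Genes with the mark in WT alone thus included changes in both directions.

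Over all genes covered in both WT lists, RNA was more often lower than higher in KO, but not among those of low level. Of the 2048 tested, 837 (40.9%) fell and 362 (17.7%) rose, with a median log2 fold change of -0.09. Among all 16882 tested coding genes, 22.4% fell and 24.5% rose, with a median of 0.01. The covered genes were the more highly expressed ones, at a median of 109 CPM in WT against 3.66 CPM for genes in no WT list. At 5 to 20 CPM, 19.9% of covered genes fell and 36.6% rose, against 16.8% and 30.9% of genes in neither WT list. At 20 to 50 CPM, 31.5% of covered genes fell and 24.6% rose, against 27.5% and 23.5%. At 50 to 200 CPM, 45.0% fell and 15.1% rose, against 41.2% and 15.2%. At 200 CPM and over, 56.9% fell and 6.70% rose, against 44.7% and 9.94%. At each of these levels the gap in the share that fell was smaller than over all genes, and the difference within a level was not tested. On autosomes 39.0% of covered genes fell, and on the X chromosome 63 of 65 did, beside 66.6% of all tested X-linked coding genes. With upper-quartile scaling 636 covered genes fell and 510 rose. The share of all calls that were higher moved with it from 50.8% to 63.5%.

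**Figure D4:**
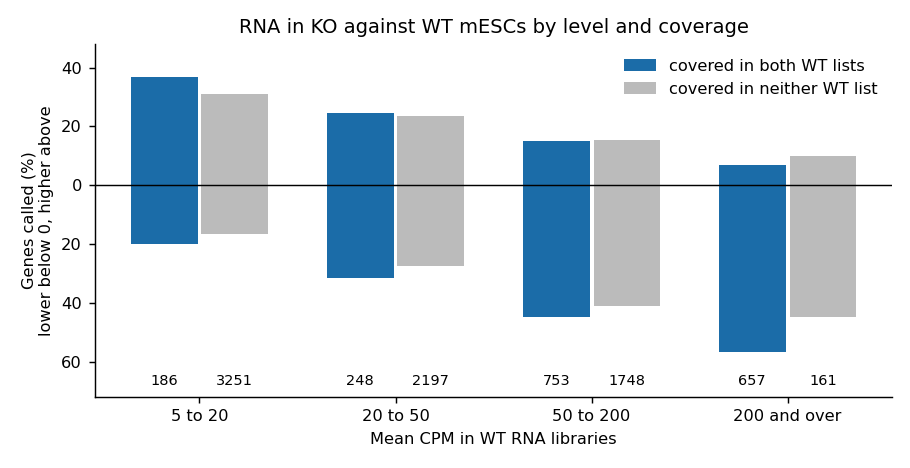
Share of tested coding genes called higher (above 0) or lower (below 0) in KO RNA by edgeR, by mean CPM in the WT libraries, for genes covered by H3K79me3 in both WT lists (blue) and in neither (grey). Numbers under the bars are the genes tested, and the shares that fell go from 19.9% to 56.9% in covered genes and from 16.8% to 44.7% in the others.

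Genes for the protein synthesis machinery were covered almost as a whole. The counts of each gene list stand beside 9.96% of all coding genes covered in both WT lists and, in RNA, 22.4% of all tested coding genes lower and 24.5% higher. Nothing particular to a list is read from its RNA counts. Of 79 cytosolic ribosomal protein genes, WT library 1 covered 79, WT library 2 covered 77, and the KO lists covered 0. Peaks spanned a median of 50.6% and 40.5% of the genes covered in both WT lists. Rpl38 had enrichments of 11.2 and 10.6 fold, and Rps10 of 11.4 and 12.7 fold. Of the 79 genes, RNA of 46 fell and of 1 (Rpl13a) rose, with a median log2 fold change of -0.13. Among the 1000 coding genes highest in WT RNA 53.3% fell, with the same median of -0.13, so the list stood near genes of high level. With upper-quartile scaling the counts were 25 and 4, so the number of calls in this list depends on scaling. Translation factors were covered in both WT lists in 28 of 35, with RNA lower in 15 and higher in 1 (12 and 7 with upper-quartile scaling). Among them the elongation factor gene Eef2 had 10.1 and 7.86 fold, and Eif4g2 RNA fell by 0.40.

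Splicing factors and chaperones were also covered in most members. Of 36 SR and hnRNP genes, which encode splicing regulators, 32 were covered in both WT lists and 0 in KO. Srsf3 had 16.2 and 9.19 fold, and Hnrnpu 13.4 and 10.9 fold. RNA fell in 24 of the 36 and rose in 1, Hnrnpul2 (18 and 2 with upper-quartile scaling, 18 and 1 without WT replicate 3). Of the 32 covered ones 22 fell and 1 rose, beside 56.9% lower among all covered genes at 200 CPM and over. Hnrnpa1 was 1250, 1320 and 1280 CPM in WT and 976 and 1020 CPM in KO (log2 fold change -0.36, SE 0.04, edgeR adjusted p = 6.9e-06). Of 24 chaperone genes 21 were covered in both WT lists and 0 in KO, and 9 of 23 tested fell and 0 rose (7 and 3 with upper-quartile scaling, 14 and 0 without KO replicate 2). Hspa8 fell by 0.50 and the mitochondrial chaperonin gene Hspd1 by 0.43 on the log2 scale.

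Glycolysis genes were covered alike, and their RNA more often rose. Both WT lists covered 12 of 16 and the KO lists 0. Hk2, a hexokinase gene, had 9258 and 7585 covered bp and rose from 516, 510 and 503 CPM to 732 and 690 CPM (log2 fold change 0.48, SE 0.04, edgeR adjusted p = 4.3e-07). Gpi1, which encodes the next enzyme of the pathway, rose by 0.65. In all 8 rose and 2 fell, the latter being Pgk1 and Ldha, and the call of Ldha was lost with upper-quartile scaling and without WT replicate 1. Without KO replicate 1 the counts were 8 and 4. Of the 12 covered genes 5 rose. The glucose transporter gene Slc2a1 (chr4:119108745-119137330), in no list and named after its values were seen, held the highest enrichment of WT library 1, 18.1 fold, with 10.2 in WT library 2. Slc2a1 RNA rose by 0.55 (edgeR adjusted p = 1.5e-06).

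Most pluripotency genes carried H3K79me3 in WT, and none had a KO peak. Of 19 genes, 14 were covered in both WT lists, and 12 of the 19 fell and 3 rose in RNA. Of the 14 covered ones 9 fell and 2 rose, beside 40.9% lower and 17.7% higher among all covered genes. Nanog, a core pluripotency factor, had 2482 and 2222 covered bp at 5.23 and 5.76 fold. Its RNA was 499, 496 and 493 CPM in WT and 231 and 256 CPM in KO (log2 fold change -1.02, SE 0.05, edgeR adjusted p = 2.6e-09). The groups were widely apart. Klf2 had 2509 and 2372 covered bp in a gene of 2593 bp, and its RNA fell by 0.36. Pou5f1, which encodes OCT4, had 2758 and 2388 covered bp and fell by 0.21. The growth factor gene Fgf4 and the factor genes Klf5 and Zfp42 fell by 0.65, 0.51 and 0.46. Sox2 and Klf4 were covered in both WT lists with log2 fold changes of -0.06 and 0.03, neither past the test. Tdgf1, a Nodal co-receptor gene, was covered and rose by 0.32. Prdm14, which had no H3K79me3 peak in any list, fell by 1.02.

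Chromatin and elongation genes were covered less completely. Of 12 PRC2 genes, which encode the complex that methylates lysine 27 of histone H3 and its cofactors, 8 were covered in both WT lists. Jarid2 was the broadest, and the PRC2 partner gene Mtf2 had 10470 and 8412 bp. RNA of Epop fell by 0.77, and in the list 4 genes rose and 3 fell. Without WT replicate 1 or 2 these counts were 2 and 2, without KO replicate 2 they were 4 and 5, and DESeq2 gave 2 and 3. Of 16 H3K4 methyltransferase complex genes 6 were covered, and 10 fell and 0 rose (6 and 1 with upper-quartile scaling), among them the X-linked Kdm6a at -1.25. Of 22 elongation factor genes 4 were covered (Cdk9, Ccnt1, Ccnt2 and Hexim1, all of P-TEFb or its inhibitor), with RNA higher in 6 and lower in 5 (9 and 2 with upper-quartile scaling, 6 and 2 without KO replicate 1, 5 and 3 without WT replicate 1, 5 and 2 without WT replicate 2). Of the 8 DOT1L complex genes 2 were covered, Mllt6 and Mllt10, and 5 fell and 2 rose. Dot1l itself had 972 covered bp in WT library 1 and none elsewhere. Of 19 cyclin and cyclin-dependent kinase genes 9 were covered, and 10 fell and 5 rose. The KO lists covered none of these 5 lists.

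Developmental genes were covered mainly in WT library 1, and some in KO. Of 39 Hox genes, body-axis regulators summing to 37.8 to 39.9 CPM in WT, WT library 1 covered 17, WT library 2 covered 3 and H3K79me2 in both WT lists covered 0. The KO lists covered 4, namely Hoxa3, Hoxa4, Hoxa13 and Hoxd13, beside 0.914% of all coding genes covered in at least 1 KO list. Hoxd13 had 570 bp in WT library 1, none in WT library 2, none in KO library 1 and 398 bp in KO library 2. RNA of 8 Hox genes rose and of 2 fell among 35 tested, close to the share of all tested coding genes that rose. The counts were 3 and 3 without KO replicate 1, 3 and 0 without KO replicate 2, 3 and 2 without WT replicate 1, 3 and 0 without WT replicate 2, 6 and 0 without WT replicate 3, 5 and 1 with a replicate block and 2 and 0 by DESeq2, so the count depends on which libraries and tool are used. A KO library 2 peak also overlapped Gata6 of the 10 primitive endoderm markers (389 bp), Cdx2 of the 10 trophectoderm markers (270 bp) and Sox1 of the 10 neural markers (665 bp). WT library 1 covered 5, 3 and 4 genes of these 3 lists, and both WT lists covered 0, 1 (Tfap2c) and 1 (Sox1). Primitive endoderm markers rose in 7 of 9 tested and fell in 0, trophectoderm markers rose in 6 and fell in 2 of 10, and neural markers rose in 2 and fell in 3 of 8. Of the 10 mesoderm and primed epiblast markers Pou3f1 alone was covered in both WT lists, with 1 higher and 3 lower of 9 tested. Of the 12 fibroblast feeder markers 0 were covered in both WT lists, and 5 rose and 0 fell of 11 tested. Without KO replicate 1 the latter became 2 and 1, and without WT replicate 2 or 3 they became 3 and 0.

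**Figure D5:**
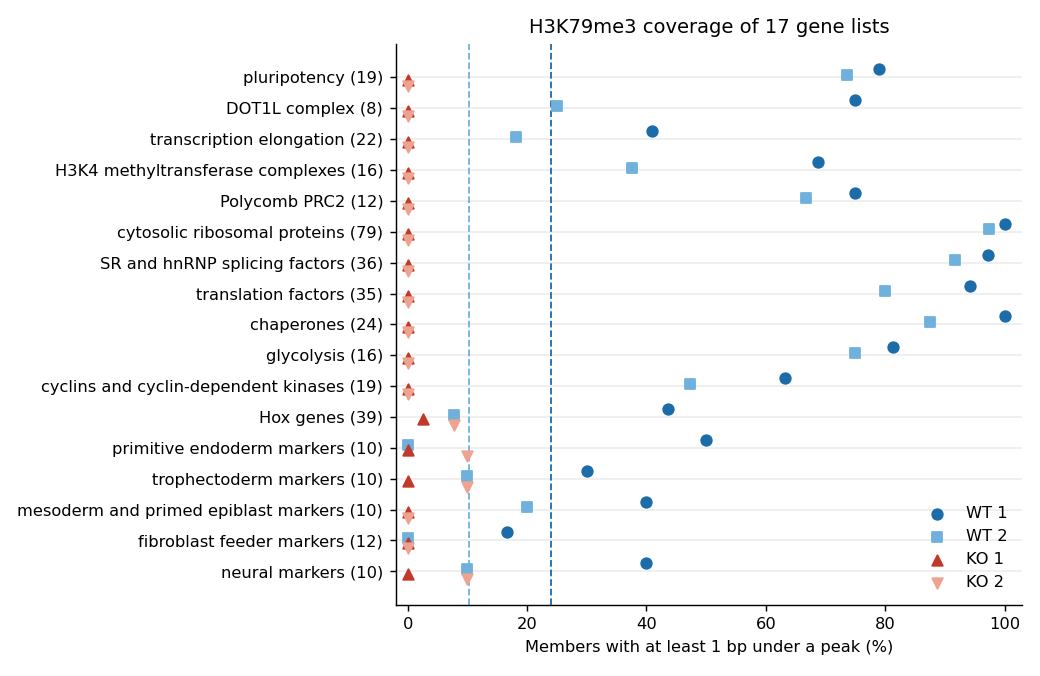
Share of the members of each of 17 gene lists (number of genes in parentheses) with at least 1 bp under an H3K79me3 peak, for each of the 4 libraries, offset vertically within a row. Dashed lines mark all coding genes in WT library 1 (24.0%) and WT library 2 (10.3%), and KO symbols lie off 0 only for the Hox, primitive endoderm, trophectoderm and neural lists.

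The peaks that KO libraries still had lay mostly where WT peaks were. Of KO library 1 peaks 92.7% (87.9 to 95.7) overlapped WT library 1 and 72.5% (65.5 to 78.5) WT library 2. For KO library 2 the shares were 87.2% (83.1 to 90.4) and 58.5% (53.1 to 63.7). The KO lists shared fewer peaks with each other, 37.6% (67 peaks) of KO library 1 and 19.2% (63 peaks) of KO library 2. The share that overlaps depends on the length of the other list. The KO lists are far shorter than the WT lists, so these shares are not comparable with those above. Where several WT peaks overlapped a KO peak, the greatest WT length and enrichment were taken. Paired with WT library 1, the WT peak was longer for 96.4% of the overlapping KO library 1 peaks and 94.4% of those of KO library 2. Against WT library 2 the shares were 93.8% and 81.8%. WT enrichment was the higher for 63.0% and 62.9% against WT library 1, and for 69.8% and 58.3% against WT library 2. Longer peaks are also likelier to overlap. H3K79me2 of WT cells lay under 5.62% (10) and 4.57% (15) of KO peaks, against 41.9% and 57.5% of WT peaks. In coding genes lay 33.7% and 54.0% of KO peaks and 61.4% and 67.5% of WT peaks.

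Peaks on the Y chromosome were fewer in KO than in WT, and made up a larger share of the shorter KO lists. In WT that chromosome held 141 peaks of library 1 (0.712%) and 74 of library 2 (1.01%), whereas KO library 1 had 27 there (15.2%) and KO library 2 had 25 (7.62%). Chromosome 8 held 1533 (7.74%) and 677 (9.23%) in WT and 29 (16.3%) and 43 (13.1%) in KO. The 2 KO lists had 63 regions in common, 16 on the Y chromosome and 6 on the X chromosome, and 15 in coding genes. Those on Y all lay within chrY:90718579-90822210 and those on X within chrX:169985677-170020224. Several others clustered within chr10:3109516-3117038, chr8:123425887-123433077 and chr9:123927596-123937160. The regions in common are thus not spread evenly over these chromosomes, and neighbouring ones need not be separate sites. The highest-scoring was chrY:90737871-90740622, in no annotated gene, at 8.41 and 8.58 fold in KO and 7.92 and 8.65 fold in WT. Next came chrX:170018492-170020224 in Erdr1, at 7.68 and 4.86 fold in KO, and chrY:90793104-90794393 in Gm33272, at 6.56 and 4.64 fold. Erdr1 lies by the pseudoautosomal region, where X and Y share sequence and reads may be split between them. chr13:119601314-119601584 in Tmem267 followed, at 3.54 and 3.63 fold, and then an intergenic stretch at chr10:3109906-3110386, at 3.17 and 4.93 fold. Ranked by the lower score of each pair of lists, a region over the same Y stretch also came first in WT, at chrY:90737362-90740715. The WT regions that followed were chrX:170013590-170022608 in Erdr1 at 10.6 and 9.46 fold, chrY:90793019-90795703 in Gm33272, chrY:90788930-90792607 and chr4:127021472-127025413 in Sfpq.

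The KO lists had 20 covered coding genes in common (0.0914%). Ranked by enrichment, genes of any kind there were Zfp445, Polrmt, Erdr1, Ezr, Gm33272, Csmd1, Thegl, Kbtbd11, Zfp703 and Slc35d3. A gene counts here even if its peaks in the 2 KO libraries do not overlap. Ezr, Csmd1, Kbtbd11 and Zfp703 held none of the 63 regions in common, so their KO peaks lay at different places in the 2 libraries. Zfp445, a zinc finger gene, had 5955 and 2632 covered bp in WT and 411 and 395 bp in KO, at 5.49 and 5.41 fold in KO. Polrmt, which encodes mitochondrial RNA polymerase, had 1818 and 298 bp in WT and 506 and 714 bp in KO. Ezr, the gene of the membrane linker ezrin, had 10461 and 8087 bp in WT and 176 and 899 bp in KO. KO coverage exceeded that of WT library 2 in Polrmt, and was the smaller in Zfp445 and Ezr. RNA of Zfp445 and Ezr fell by 0.26 and 0.44, and that of Polrmt rose by 0.31 (edgeR adjusted p = 0.00067, 1.2e-06 and 0.00098).

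Start windows under KO peaks, all of them in KO library 2, were rich in CG, as were those under WT peaks. Of 17492 windows, 36 (0.206%) were covered in both WT lists, 329 (1.88%) in WT library 1 and not WT library 2, and 11 (0.0629%) in a KO list. The 11 were those of Rasd2, Vmn2r29, Ptch1, Myrip, Nbl1, Wnt7a, Sema5b, Foxl2, Pcgf5, Fibcd1 and Gm52310. KO library 2 covered all 11 and KO library 1 covered 2, Rasd2 and Vmn2r29, so the shares below rest largely on 1 library. The median number of CG dinucleotides per window was 13 for all starts, 29 for those in both WT lists, 32 for those in WT library 1 alone of the WT lists and 37 for the 11 KO windows. All 11 held at least 15, as did 80.6% of those in both WT lists, 91.2% of those in WT library 1 alone and 47.4% of all windows. The GC box core GGGCGG, searched on both strands, occurred in 8 of the 11 (72.7%), in 58.3% of the windows in both WT lists, in 73.3% of those in WT library 1 alone and in 46.3% of all windows. TATAAA occurred in 0 of the 11 and, in the same order, in 5.56%, 6.38% and 13.3%. CCAAT occurred in 2 of the 11 (18.2%), in 9 of the 36 windows in both WT lists, and in 19.1% and 39.2% of the other sets, and ATGGCG in 0 of the 11 and in 19.4%, 15.5% and 11.2%. In the Rasd2 and Vmn2r29 stretches printed above, neither GGGCGG nor TATAAA was found. Summits within 500 bp of a start made up 2.81% and 11.5% of KO peaks, 8.64% and 4.78% of WT peaks and 1.41% of WT H3K79me2 peaks in each library.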

How the data were processed

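ChIP and RNA were compared between WT and Dot1L KO mESCs, grouped by sample title. The ChIP files are narrowPeak lists of 1 library each. Per the submitters' processing notes, build mm10, Bowtie2 and MACS2 were used for ChIP, and kallisto, STAR and HTSeq are named for RNA without a role. Versions and the peak caller's control and settings are not given in the sources used here, and ChIP read depth is unknown. The deposited score column is 10 times the deposited −log10 q of the peak, and the deposited ratio is the caller's fold enrichment, which depends on library depth and background. The deposited RNA values are estimated counts, rounded here to whole numbers.

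Peaks were intersected (at least 1 bp) with RefSeq coding genes on GRCm38.p6. Of 21887 coding genes 17492 matched a start and strand in the promoter table. RNA was tested with edgeR 4.0.16 (quasi-likelihood, TMM, low-count filter, Benjamini-Hochberg over 19532 genes, of which 22.3% were higher and 21.6% lower at an adjusted p below 0.05). Of RNA rows 84.6% matched an annotated gene. Alternatives were RLE and upper-quartile scaling, DESeq2 1.42.0, no filter, a replicate block and leaving out libraries. The edgeR fit and the interval code were tested on simulated data. Motifs, the 17 gene lists (pluripotency, DOT1L complex, elongation, H3K4 methyltransferases, PRC2, ribosomal proteins, splicing, translation, chaperones, glycolysis, cyclins, Hox and 5 sets of lineage markers) and all members were chosen with earlier results of these data known. Genes named are the 10 highest by WT enrichment without a KO peak, the 10 with most covered bases, 10 in both KO lists, the 5 largest RNA changes each way among genes in both WT lists (mean of at least 1 CPM, groups apart), Dot1l, list members and the top 5 regions, and 1 gene that the rule names is not reported here. RNA replicate numbers pair nothing in the labels.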

Additional observations from a re-analysis of the deposited data

How the results depend on the processing

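Peak counts move with the calling threshold and with the WT library, and the direction of WT above KO held for peak number, covered length and median length under the alternatives run for them. Keeping peaks with −log10 q of at least 5 gave a mean of 5968 WT peaks against 13569 as reported, 111 KO peaks against 253, 4001 against 6441 kb in WT and 39.4 against 75.9 kb in KO. It also gave median lengths of 445 bp (WT, 317 as reported) and 244 bp (KO, 235), a WT median enrichment of 4.86 against 4.14, and 24.3% of WT summits within 2 kb downstream of a start, against 19.2% and 20.8% in the lists as deposited (a mean of 22.7% for any overlap with that window). Merging within 1 kb left 8716 WT peaks. At equal numbers of top peaks the medians were 1974 bp and 9.53 fold in WT and 244 bp in KO. Without WT replicate 1 or 2 the WT values were 7338 and 19800 peaks, 3608 and 9274 kb. Genes in both WT lists and no KO list, 2053, became 1226 at the stricter q, 5138 with either WT list and 2079 to 5068 when each library was left out, the highest without WT replicate 2. Members of the 6 Hox and marker lists in both WT lists, 6 as reported, became 1 at the stricter q and 7 to 35 with 1 WT list, and those in a KO list fell from 7 to 2 at the stricter q. KO peaks overlapping either WT list, 94.9% and 89.3%, became 70.2% and 56.4% when both were required, 72.5% to 92.7% and 58.5% to 87.2% when a WT library was left out, and 85.4% in KO library 2 when 50% of the peak had to be covered. The labels do not say whether RNA replicate numbers pair the libraries. Correlations of deviations were 0.0216 (WT 1 with KO 1) and -0.0107 (WT 2 with KO 2). Deviations of the 2 KO libraries mirror each other by construction, so these values cannot decide it. With a replicate block 836 covered genes fell and 342 rose, against 837 and 362. Leaving out RNA libraries gave 713 to 969 lower and 305 to 339 higher, where a lone KO library is assumed to vary like the others. Restricting to assembled chromosomes left the 10 values it was run for unchanged because every peak already lay on one, so it is no check. The unknown ChIP depth limits every count of peaks, and differences between lists were not tested.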

Other observations

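The most highly expressed genes were nearly all under H3K79me3. Of the 100 coding genes highest in WT RNA, 93 were covered in both WT lists and 2 in a KO list, and of the highest 1000 the counts were 659 and 9. Among 1837 coding genes with no count in any WT RNA library, 12 (0.653%) were covered in both WT lists, and H3K79me2 covered 9 of all 1837. Genes covered in WT library 1 alone of the WT lists numbered 3077, had a median of 24.7 CPM in WT, and their RNA rose in 27.3% and fell in 24.9% of 2833 tested. The 126 genes covered in both WT lists and at least 1 KO list had a median of 10.7 CPM, and H3K79me2 covered 46.0% of them in both WT lists. The 62 covered in WT library 1 alone of the WT lists and in a KO list had 1.53 CPM, and H3K79me2 covered 6.45%.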
